A study of Homo sapiens with 6 samples.

Results

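The genes described here are those of the lysosome: subunits of its proton pump, its digestive enzymes with the cathepsins among them, its membrane proteins, lumenal cofactors and the transcription factors that control them. The list holds 43 gene symbols, of 53826 entries in the deposited tables, and all 43 were found. It was drawn up by gene name, but with earlier results of these data known, so it cannot be taken as independent of the values. It comprises 17 proton pump genes (6 of the membrane sector V0, 9 of the catalytic sector V1 and 2 accessory), 8 cathepsins, 6 other hydrolases, 6 membrane proteins, 3 lumenal proteins without enzyme activity and 3 transcription factors. RNA-seq was performed on the PDAC (pancreatic ductal adenocarcinoma) lines PK-1 and Panc-1, both established human cell lines, to learn how blocking the retinoic acid receptor RARγ alters gene expression and proliferation. Each line received either no inhibitor (Control) or, for 24 h, an RARγ antagonist: LY2955303, called RARγi-1, or MM11253, called RARγi-2. The labels give no time for the Controls. This gave 6 conditions with 1 library each. The study lists an altered CDKN2A for both lines and an altered SMAD4 for PK-1. The doses for the RNA-seq and what the control cells received are not stated in the sources used here, so the inhibitors are given side by side and not compared with each other. The treatment entry of both RARγi-2 libraries reads RARγi-1, while their titles name RARγi-2. They were assigned by title, and the levels of RARγi-1 and its fold changes of single genes within a line do not use them. The spread and the counts past it do use them. They also enter the choice of tested entries, and so the counts, medians and shares given for RARγi-1. The main test over both lines draws its error from them as well.

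Lysosomes digest proteins, lipids and sugars at acid pH. The V-type proton pump sets that pH: its V1 sector, with the catalytic A and B subunits, splits ATP in the cytosol, and its V0 sector carries protons through the membrane. Cathepsins are the main lysosomal proteases, LAMP proteins coat the inner face of the membrane, and TFEB, TFE3 and MITF switch on lysosomal genes when nutrients are short or lysosomes are damaged.

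Levels are in TPM, a scale of transcript abundance corrected for transcript length and library size, and any value under 1 TPM was deposited as 1 TPM, called the floor below. Fold changes are log2 of (TPM + 1) in the treated library over (TPM + 1) in the Control of the same line, which understates changes of weakly expressed genes. "Rose" and "fell" are kept for changes past 2-fold. With 1 library per condition there is no test within a line, and the only test run treats the lines as replicates of each other. Setting each line's RARγi-2 library against its RARγi-1 library gave a spread of 0.29 per library in PK-1 and 0.23 in Panc-1 on the log2 scale, hence 0.41 and 0.32 for a fold change, and this spread also holds true differences between the inhibitors. Between 13149 and 13652 entries per library lay above the floor. Of 6 epithelial markers, all 6 were above the floor in the PK-1 Control and 5 in the Panc-1 Control, where CDH1, encoding E-cadherin, was at the floor. The summed level of these 6 was 16874 TPM in the PK-1 Control, 11234 with RARγi-1 and 11675 with RARγi-2. In Panc-1 it was 8477, 1828 and 1500 TPM, and whether that change bears on the lysosomal genes was not tested. Most of each sum came from KRT8, KRT18 and KRT19, and the markers did not all move alike. CDH1 was higher in treated PK-1 cells, at 170, 270 and 385 TPM, while the other markers were lower there. EPCAM was nearly level in PK-1, at 578, 552 and 497 TPM. Its level in Panc-1 was 13.4, 19.4 and 9.18 TPM, while the keratins and SOX9 were lower in both treated libraries. The 7 macrophage markers were at the floor throughout, except CD14 at 1.0 TPM and ITGAM at 1.45 TPM in the Panc-1 Control.

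Most lysosomal genes stayed within 2-fold of Control, and a small set rose or fell far beyond it. With RARγi-1 in PK-1, 6 of 43 members (14.0%) rose and 3 (6.98%) fell, where 9.06% and 4.85% of all 14264 tested entries did. RARγi-2 in PK-1 raised 7 (16.3%) and lowered 4 (9.30%), against 11.9% and 12.4% of all entries. Panc-1 gave 3 of 42 members higher (7.14%) and 1 lower (2.38%) with RARγi-1, beside 7.31% and 5.96% of 14179 entries. The RARγi-2 library of Panc-1 had 4 higher (9.52%) and 6 lower (14.3%), beside 8.34% and 11.0%. These shares lie near those of all entries, so the lysosomal genes as a list did not stand apart. With RARγi-1 and RARγi-2 their median log2 fold change was 0.13 and 0.05 for PK-1 cells, then 0.01 and -0.02 for Panc-1 cells, where the medians of all tested entries were 0.13, 0.01, 0.08 and -0.01. In the same order, 18, 23, 21 and 26 members lay past the spread of a fold change, or 41.9%, 53.5%, 50% and 61.9%, beside 48.0%, 58.3%, 56.1% and 61.0% of all tested entries. The individual genes differ widely in size of change: ATP6V0D2, LAMP3 and CTSL rose in all 4 comparisons and CTSH fell in all 4, and no other member did either.

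**Figure D1:**
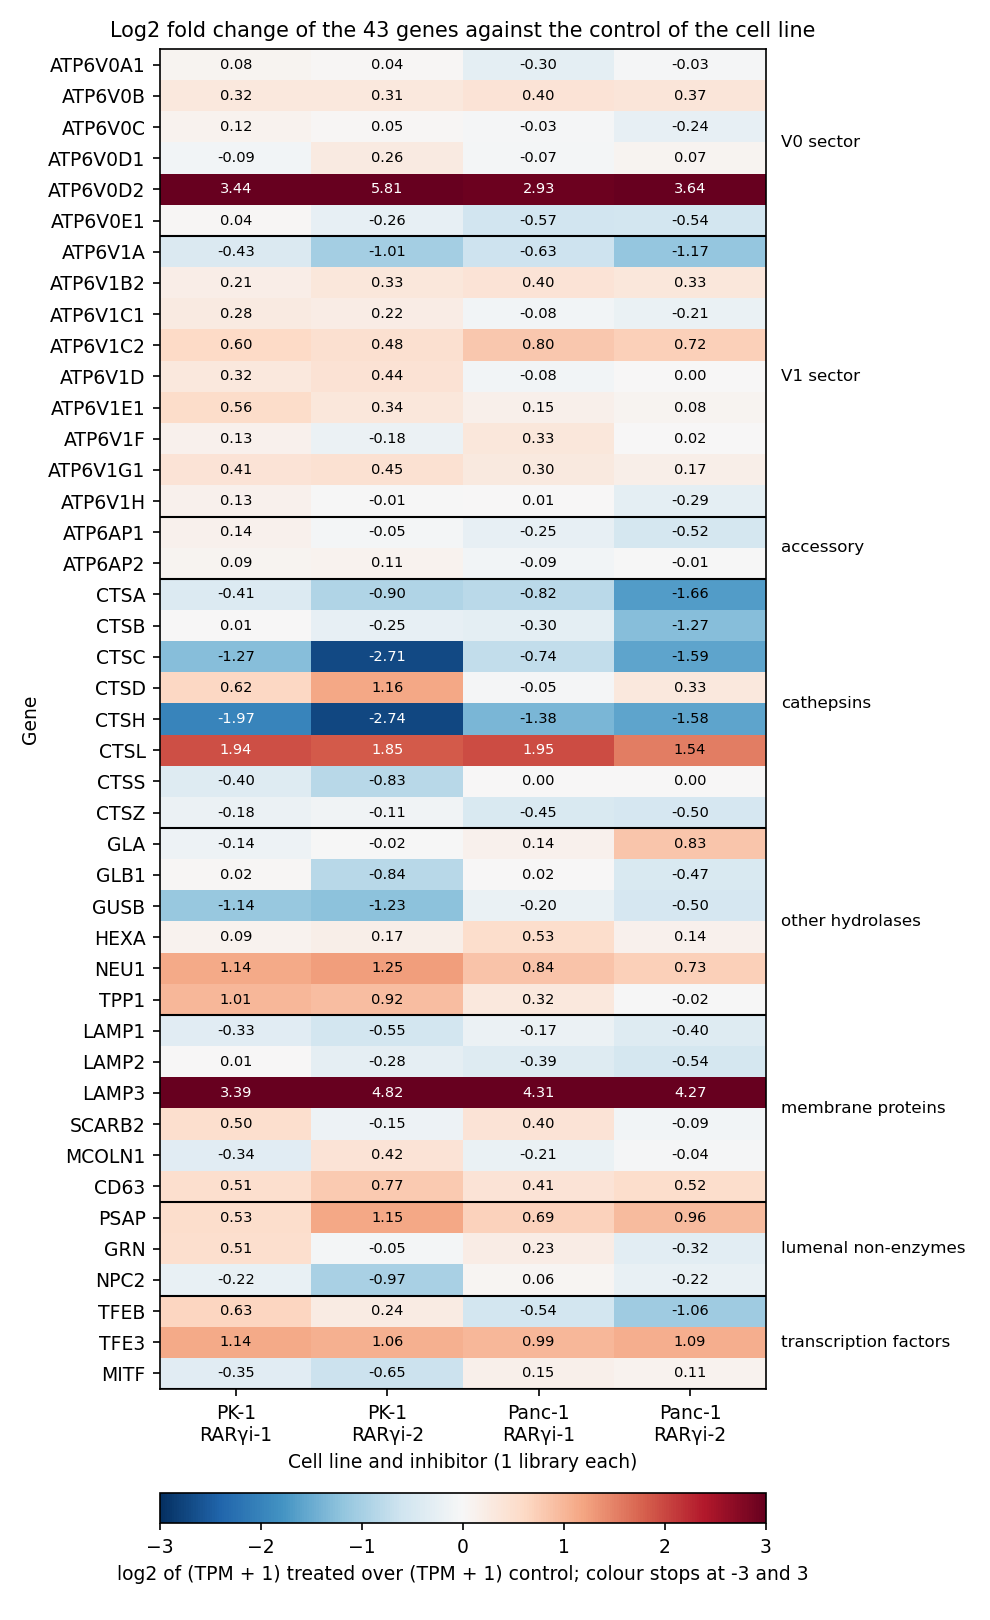
Heat map of log2 fold changes of the 43 genes (rows, by class) against the Control of the same cell line for PK-1 and Panc-1 with each inhibitor (columns, 1 library each), with the value printed in each cell; colour stops at -3 and 3. ATP6V0D2, LAMP3 and CTSL are red and CTSH is blue in all 4 columns, while most proton pump rows are pale.

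**Figure D2:**
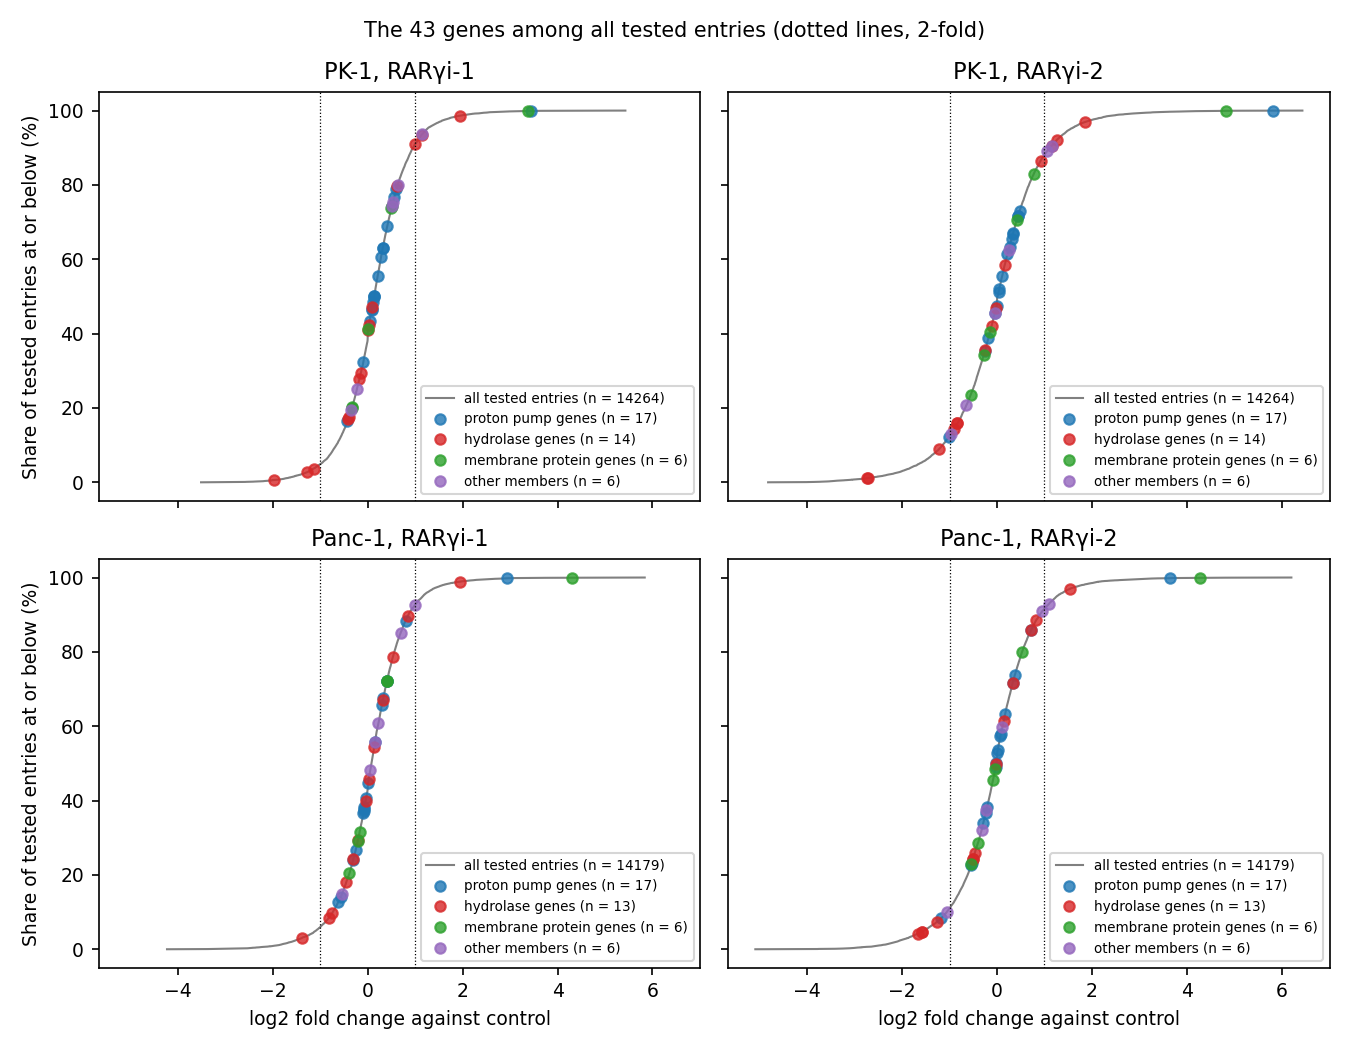
Share of all tested entries at or below each log2 fold change (grey line, in percent) for the 4 comparisons, with the lysosomal genes placed on that line by class; dotted vertical lines mark 2-fold. The members lie along the whole line, and only ATP6V0D2, LAMP3 and CTSL are past 2-fold on the right in every panel.

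Of the proton pump genes, only ATP6V0D2 and ATP6V1A passed 2-fold in any comparison. Past the spread lay 4, 5, 7 and 7 of the 17 in PK-1 RARγi-1, PK-1 RARγi-2, Panc-1 RARγi-1 and Panc-1 RARγi-2. These are 23.5%, 29.4%, 41.2% and 41.2%, below the 48.0%, 58.3%, 56.1% and 61.0% of all tested entries. ATP6V0D2 was at the floor in both Controls. It encodes the d2 form of the V0 subunit that couples the membrane sector to V1, and is best known from osteoclasts and macrophages. It reached 20.7 TPM (RARγi-1) and 111 TPM (RARγi-2) in PK-1, and 14.2 and 23.9 TPM in Panc-1. Set against the 1 TPM floor, these are at least 20.7-fold, 111-fold, 14.2-fold and 23.9-fold higher. All 4 treated libraries thus lay above both Controls. The share of all tested entries that did so was not counted.

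ATP6V0D1, encoding the d1 form found in most cells, stood at 143, 134 and 172 TPM in PK-1 Control, RARγi-1 and RARγi-2, and at 75.2, 71.6 and 79.1 TPM in Panc-1. Its log2 fold changes ran from -0.09 to 0.26. The d2 form therefore made up at most 0.695% of the summed d transcripts in the PK-1 Control, 13.4% with RARγi-1 and 39.3% with RARγi-2. In Panc-1 the shares were at most 1.31%, then 16.6% and 23.2%. Of 6 osteoclast markers, the only ones above the floor were CTSK in every library, at 3.24, 8.17 and 6.99 TPM in PK-1 and 5.97, 5.11 and 6.14 TPM in Panc-1, and MMP9 at 1.41 TPM in the Panc-1 Control. ACP5, CALCR, DCSTAMP and OCSTAMP, which belong to the osteoclast lineage, were at the floor in all 6 libraries. The PSKH2 gene, which overlaps ATP6V0D2 on the other strand, was at the floor in all 6 libraries too.

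ATP6V1A, encoding the catalytic A subunit, moved the other way. It measured 47.7 TPM in the PK-1 Control, 35.2 with RARγi-1 and 23.1 with RARγi-2, or -0.43 and -1.01 on the log2 scale. In Panc-1 it measured 35.5, 22.7 and 15.2 TPM, or -0.63 and -1.17. It was lower in every treated library than in its Control, and past 2-fold with RARγi-2 in both lines, in PK-1 only just. Its partner in the catalytic ring, the B subunit gene ATP6V1B2, showed the opposite sign, with 58.1, 67.4 and 73.5 TPM in PK-1 and 24.4, 32.6 and 31.0 TPM in Panc-1. Those changes lay within the spread in PK-1 (0.21 and 0.33) and just past it in Panc-1 (0.40 and 0.33).

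The remaining pump subunits stayed within 2-fold on the log2 (TPM + 1) scale. ATP6V0E1, the most abundant on average, was at 338, 348 and 283 TPM in PK-1 and 394, 266 and 270.3 TPM in Panc-1, giving -0.57 and -0.54 in Panc-1. ATP6V0C, which encodes the proton-carrying c subunit of the rotor, stayed at 279 to 302 TPM in PK-1 and 302 to 356 TPM in Panc-1. ATP6V0B, encoding the c″ subunit of the same rotor, was higher in all treated libraries by 0.31 to 0.40. ATP6V1C2, a C subunit form of restricted tissues, was 2.52, 4.35 and 3.90 TPM in PK-1 and 1.87, 4.0 and 3.74 TPM in Panc-1, the next largest positive change at 0.48 to 0.80. It overlaps PDIA6 on the opposite strand, whose level was 359, 456 and 492 TPM in PK-1 and 294, 400.0 and 511 TPM in Panc-1, and whether reads were counted by strand is not given in the sources used here. ATP6V0D2 was left out of the next counts with its values known. Across the other 16 pump genes, 16, 15, 16 and 15 lay within 2-fold in PK-1 RARγi-1, PK-1 RARγi-2, Panc-1 RARγi-1 and Panc-1 RARγi-2. Most tested entries did too: 12280 and 10801 of 14264 in PK-1 and 12298 and 11434 of 14179 in Panc-1. Within 0.5 log2 units there were 14, 15, 13 and 12 of the 16, and all entries were not counted at that limit. The median level of these 16 genes was 104, 120 and 116 TPM in PK-1 Control, RARγi-1 and RARγi-2 and 78.9, 84.8 and 83.1 TPM in Panc-1. Over all 17 pump genes the median log2 fold change in PK-1 was 0.14 and 0.22, while Panc-1 gave -0.03 and 0.00.

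**Figure D3:**
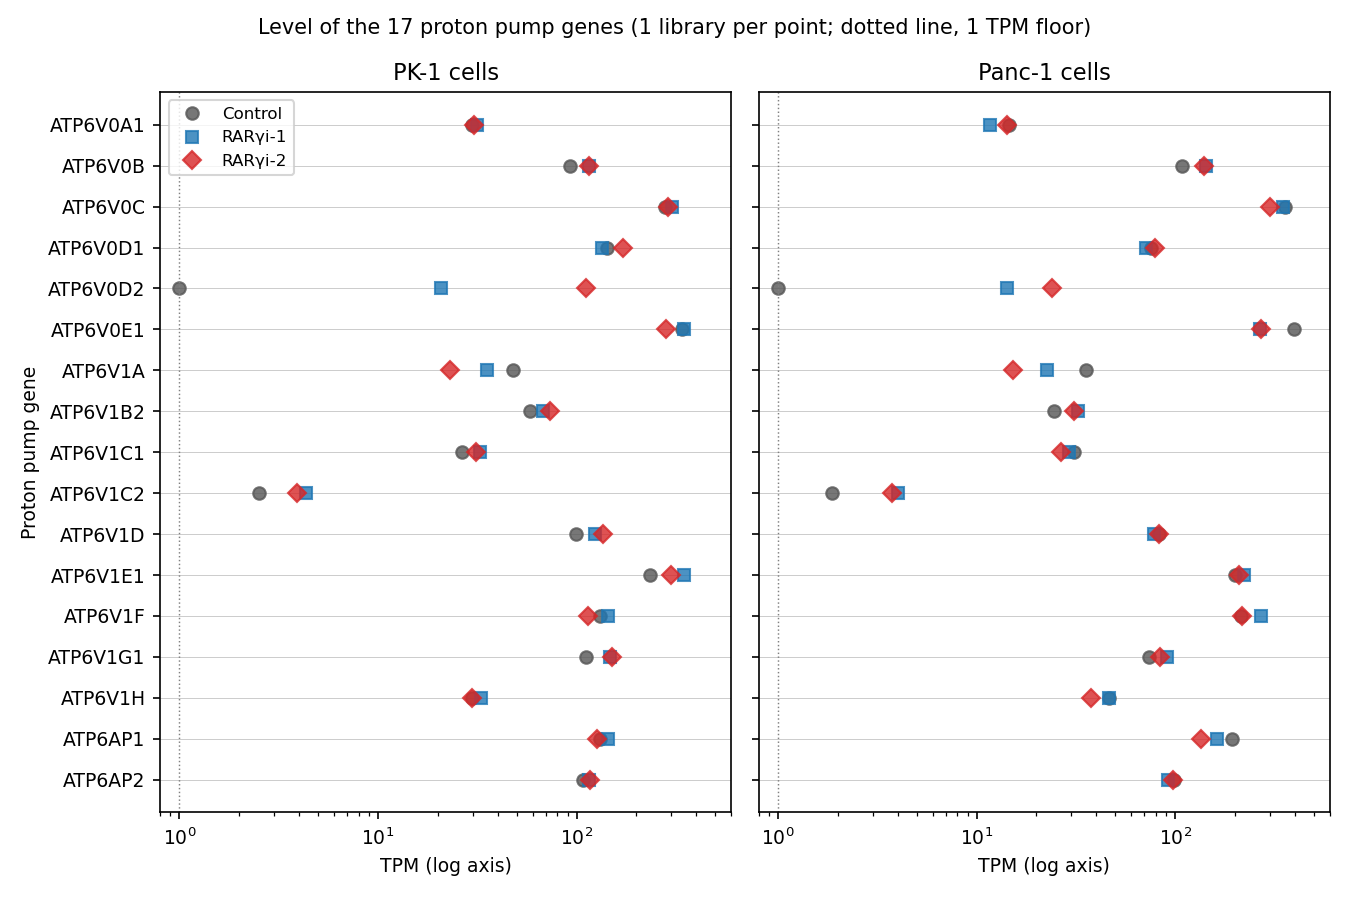
Level of the 17 proton pump genes in TPM (log axis) for PK-1 on the left and Panc-1 on the right, with circles for Control, squares for RARγi-1 and diamonds for RARγi-2, 1 library per point, and the 1 TPM floor dotted. The 3 points of most genes overlap, whereas those of ATP6V0D2 run from the floor to 111 TPM on the left and 23.9 TPM on the right.

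Among the cathepsins, CTSL rose while CTSH and CTSC were lower, so the mixture of protease transcripts changed more than its total. CTSL encodes cathepsin L, a broad endopeptidase of the papain family (RefSeq GRCh38.p14 chr9:87726119-87731469). Its level was 212 TPM in the PK-1 Control, 814 with RARγi-1 and 765 with RARγi-2, and in Panc-1 100.4, 392 and 295 TPM. These are log2 fold changes of 1.94, 1.85, 1.95 and 1.54, or 3.84-fold, 3.61-fold, 3.90-fold and 2.94-fold in TPM. The changes span a narrow range although PK-1 started from the higher level.

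CTSH encodes cathepsin H, which trims amino acids from the N-terminus of proteins (chr15:78921058-78945046). In the PK-1 Control it was the most abundant cathepsin with 631 TPM, and RARγi-1 lowered it to 160.3 TPM, RARγi-2 to 93.5 TPM. In Panc-1 it started at 23.0 TPM and fell to 8.22 and 7.04 TPM. On the log2 scale PK-1 changed by -1.97 and -2.74, and Panc-1 by -1.38 and -1.58. Every treated library lay under its own Control, although the treated PK-1 libraries still held more CTSH than the Panc-1 Control.

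CTSC encodes cathepsin C, a dipeptidyl peptidase that activates granule proteases (chr11:88293592-88337736). It was at 72.4 TPM in the PK-1 Control, 29.4 with RARγi-1 and 10.2 with RARγi-2, a fall of 2.46-fold and 7.10-fold in TPM. Panc-1 held 32.0, 18.7 and 9.98 TPM, which gave log2 fold changes of -0.74 and -1.59. It was lower in all 4 treated libraries and past 2-fold in all but Panc-1 RARγi-1.

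CTSD, encoding the aspartic protease cathepsin D, was 425, 655 and 948 TPM in PK-1, so that it rose past 2-fold with RARγi-2 (log2 fold change 1.16) and was 0.62 higher with RARγi-1. In Panc-1 it was already at 1013 TPM and measured 981 and 1271 TPM after treatment, with changes of -0.05 and 0.33. CTSA, encoding the carboxypeptidase that shields the enzymes GLB1 and NEU1 in a complex, was 113, 84.5 and 59.7 TPM in PK-1 and 111, 62.5 and 34.3 TPM in Panc-1. It was lower in all 4 comparisons (-0.41, -0.90, -0.82 and -1.66) and past 2-fold only in the last. The PLTP gene overlaps CTSA on the opposite strand and measured 1.0, 2.46 and 5.59 TPM in PK-1 and 21.4, 135 and 123 TPM in Panc-1.

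CTSB, encoding cathepsin B, an abundant papain-family protease, stayed at 147, 147 and 123 TPM in PK-1. In Panc-1 it went from 134 to 108 and 54.7 TPM, a log2 fold change of -1.27 with RARγi-2. CTSZ, a carboxypeptidase, was a little lower throughout (-0.11 to -0.50). CTSS, a protease of antigen-presenting cells, was at 2.22 to 4.74 TPM in PK-1 and at the floor throughout Panc-1.

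The summed level of the 8 cathepsins was 1775 TPM in the PK-1 Control, 2045 with RARγi-1 and 2159 with RARγi-2, and 1660, 1751 and 1846 TPM in Panc-1. Within that sum, the CTSH share in PK-1 was 35.6% in Control, 7.84% with RARγi-1 and 4.33% with RARγi-2, while CTSL went from 11.9% to 39.8% and 35.4%. In Panc-1 the CTSL share was 6.05%, 22.4% and 16.0%, and CTSD made up 61.0%, 56.0% and 68.8%. The leading cathepsin transcript of PK-1 was thus CTSH in Control, CTSL with RARγi-1 and CTSD with RARγi-2, whereas CTSD led in all 3 Panc-1 libraries. These shares are single-library values, and TPM keep no read depth from which an interval could be drawn.

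**Figure D4:**
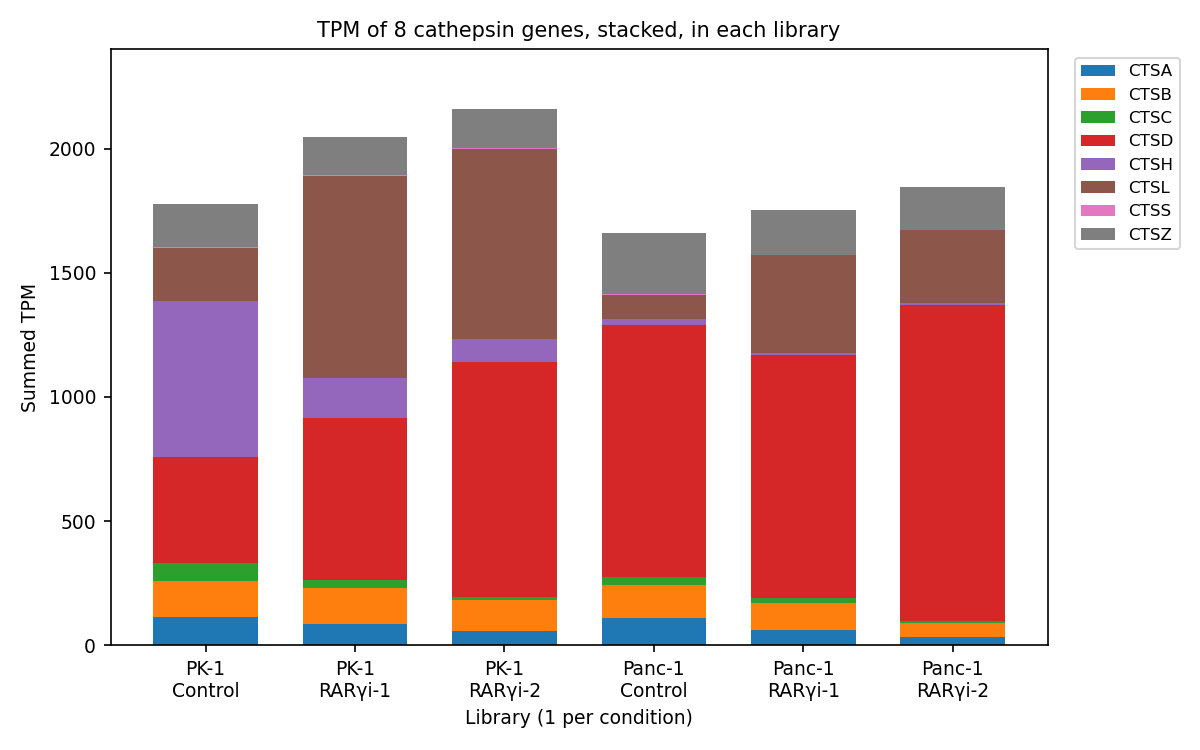
Summed TPM of the 8 cathepsin genes in each of the 6 libraries, stacked by gene. The total is 1660 to 2159 TPM, while CTSH shrinks from 631 to 93.5 TPM in PK-1 and CTSL is larger in each treated library than in its Control.

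The other hydrolases held 2 genes that rose or fell with both inhibitors in PK-1. NEU1, encoding the sialidase that removes sialic acid from glycans (chr6:31857659-31862821), was 26.8, 60.3 and 65.4 TPM in PK-1 and 33.9, 61.7 and 56.7 TPM in Panc-1. All 4 treated libraries lay above both Controls, and how many of all entries did so was not counted. The log2 fold changes were 1.14, 1.25, 0.84 and 0.73, so it rose past 2-fold in PK-1 and remained short of it in Panc-1. GUSB, encoding β-glucuronidase, fell from 27.6 to 12.0 and 11.2 TPM in PK-1 (-1.14 and -1.23) and was 47.4, 41.0 and 33.3 TPM in Panc-1 (-0.20 and -0.50). GUSB has pseudogenes, of which the highest, GUSBP11, reached 7.09 TPM, so part of its reads could have been assigned to a copy or the reverse.

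TPP1, encoding a peptidase that removes tripeptides, was 31.9, 65.0 and 61.2 TPM in PK-1, with changes of 1.01 and 0.92 on either side of the limit. In Panc-1 it was 108, 135 and 107 TPM and changed by 0.32 and -0.02. GLA, encoding α-galactosidase, stayed within 0.14 of Control except in Panc-1 with RARγi-2, where it went from 116 to 208 TPM (0.83). The β-galactosidase gene GLB1 changed by 0.02 in both RARγi-1 comparisons and by -0.84 and -0.47 with RARγi-2. HEXA, whose product splits gangliosides, ran from 0.09 to 0.53. Of the 6 other hydrolases, 2 rose and 1 fell in PK-1 with RARγi-1, 1 rose and 1 fell with RARγi-2, and none passed 2-fold in Panc-1. With so few genes these counts are to be read beside the shares of all entries that rose and fell, 9.06% and 4.85%, 11.9% and 12.4%, 7.31% and 5.96%, and 8.34% and 11.0% in the 4 comparisons as ordered above.

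Of the 6 membrane protein genes, only LAMP3 passed 2-fold. LAMP3, also called DC-LAMP, is a short LAMP protein known from mature dendritic cells and lung epithelium (chr3:183122215-183163813). The PK-1 Control held 3.75 TPM of it, the Panc-1 Control 2.58 TPM. In treated PK-1 cells it reached 48.7 TPM (RARγi-1) and 133 TPM (RARγi-2), in treated Panc-1 cells 70.2 and 68.1 TPM. In TPM these are 13.0-fold, 35.5-fold, 27.2-fold and 26.4-fold higher in PK-1 RARγi-1, PK-1 RARγi-2, Panc-1 RARγi-1 and Panc-1 RARγi-2, or 3.39, 4.82, 4.31 and 4.27 on the log2 scale.

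The LAMP genes that coat lysosomes in most cells did not share that change. LAMP1 was 320, 254 and 217 TPM in PK-1 and 127, 113 and 96.4 TPM in Panc-1, with log2 fold changes of -0.17 to -0.55. LAMP2 was 43.4, 43.8 and 35.6 TPM in PK-1 and 48.4, 36.8 and 33.0 TPM in Panc-1. With RARγi-2 the PK-1 level of LAMP3 was thus above that of LAMP2 and below that of LAMP1. CD63, encoding a tetraspanin of lysosomes and exosomes and the most abundant of the membrane genes, was 487, 695 and 834 TPM in PK-1 and 365, 485 and 526 TPM in Panc-1. It was 0.41 to 0.77 higher in each comparison, past the spread but short of 2-fold. SCARB2, the receptor that carries glucocerebrosidase to lysosomes, ran from -0.15 to 0.50, and the calcium channel gene MCOLN1 from -0.34 to 0.42.

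PSAP, encoding prosaposin, the precursor of the saposins that help enzymes reach lipids, was the most abundant member in all 6 libraries (chr10:71816298-71851251). It was 1086, 1572 and 2414 TPM in PK-1 and 1503, 2434 and 2921 TPM in Panc-1. The log2 fold changes were 0.53, 1.15, 0.69 and 0.96, positive throughout and past 2-fold once. GRN, encoding progranulin, a lysosomal partner of prosaposin, was 216, 308 and 209 TPM in PK-1 and 106, 124 and 84.6 TPM in Panc-1. It was thus 0.51 and 0.23 above Control with RARγi-1 and 0.05 and 0.32 under it with RARγi-2. NPC2, which hands cholesterol to NPC1, was 262, 224 and 133 TPM in PK-1 (-0.22 and -0.97) and 81.5, 84.7 and 69.7 TPM in Panc-1 (0.06 and -0.22). The summed level of all 43 genes was 6500, 7902 and 8761 TPM in PK-1 and 6348, 7661 and 8074 TPM in Panc-1, and PSAP was the largest single term in each sum.

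Of the MiT/TFE transcription factor genes, TFE3 was higher in every treated library, while TFEB and MITF were not. TFE3 (chrX:49028726-49043357) was 37.9 TPM in the PK-1 Control, 85.0 with RARγi-1 and 80.0 with RARγi-2, and 51.4, 103 and 111 TPM in Panc-1. The lowest treated library lay above the highest Control, a pattern whose share among all entries was not counted. The changes of 1.14, 1.06, 0.99 and 1.09 differed by less than the spread, and all lay close to the 2-fold limit, with Panc-1 RARγi-1 just short of it. TFEB was 2.95, 5.13 and 3.68 TPM in PK-1 (0.63 and 0.24) and 4.71, 2.92 and 1.75 TPM in Panc-1 (-0.54 and -1.06), all within a few TPM of the floor. MITF was 13.0, 10.02 and 7.97 TPM in PK-1 (-0.35 and -0.65) and 1.06, 1.29 and 1.23 TPM in Panc-1, near the floor. TFE3 therefore was the main transcript of the family in all 6 libraries. Activity of these factors is set largely by their move to the nucleus, which RNA levels do not measure.

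**Figure D5:**
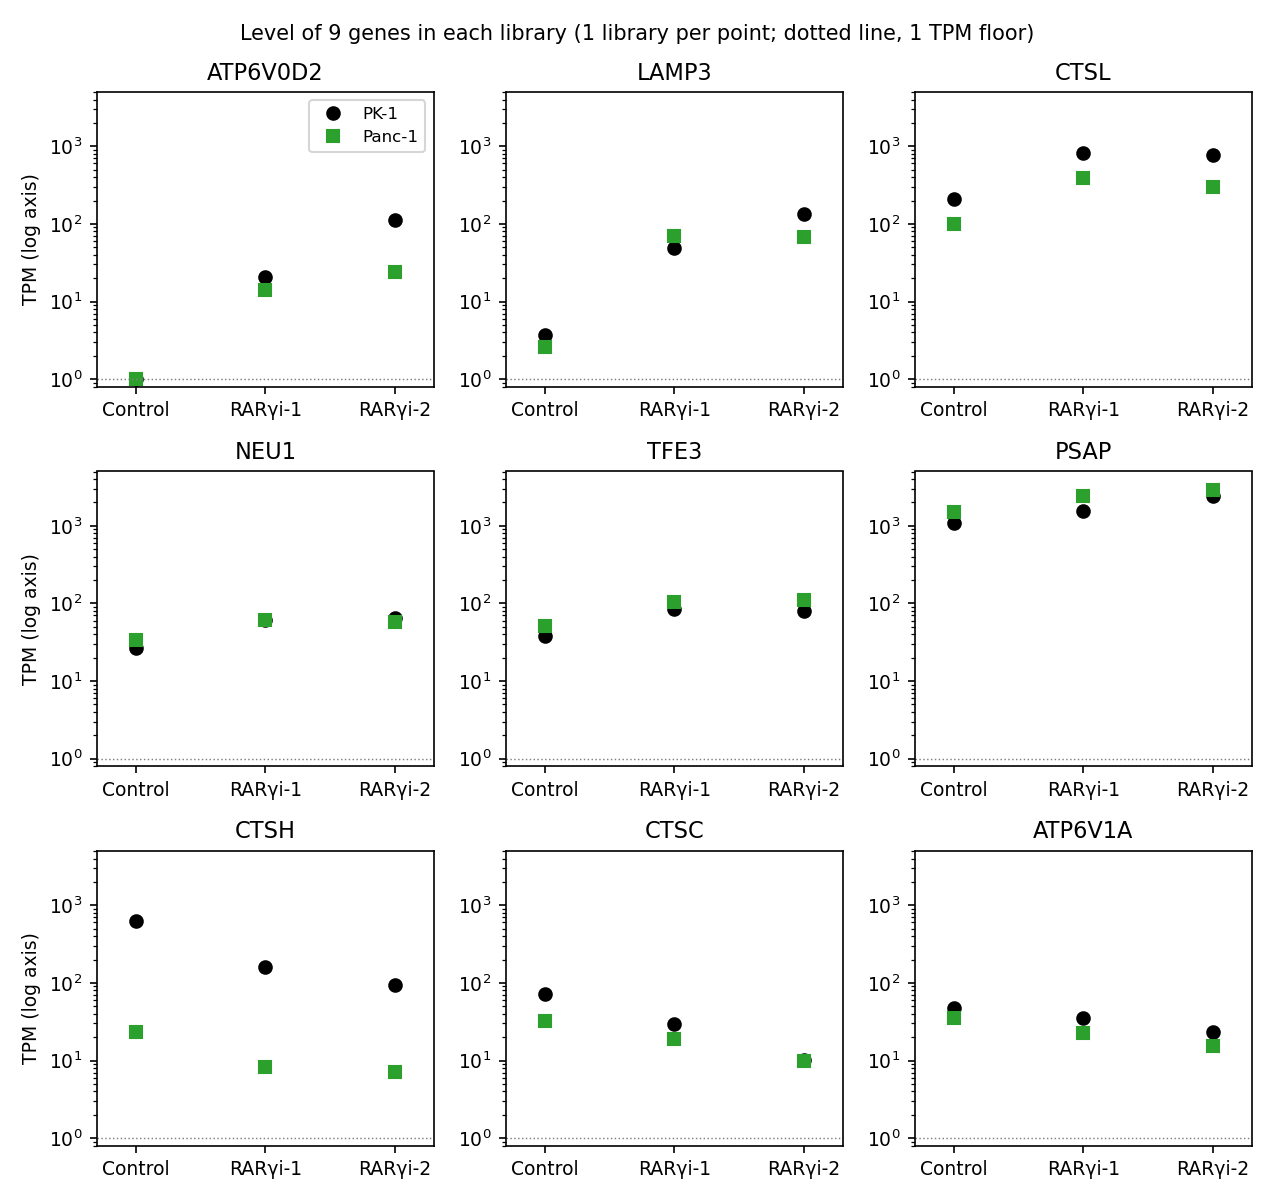
Level in TPM (log axis) of 9 lysosomal genes in the Control, RARγi-1 and RARγi-2 libraries of PK-1 (black circles) and Panc-1 (green squares), 1 library per point, with the 1 TPM floor dotted. ATP6V0D2, LAMP3, CTSL, NEU1, TFE3 and PSAP lie higher and CTSH, CTSC and ATP6V1A lower in every treated library than in the Control of that line.

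MiT/TFE factors bind the letters TCACGTG or, more loosely, the E-box CACGTG contained in it, and lysosomal promoters are known for this site. In the RefSeq promoters of GRCh38.p14, which run from 250 bases before to 50 bases after a gene's start, 31 of the 43 members had an entry, and both strands were searched. No entry was held for ATP6V0D2, ATP6V0E1, ATP6V1A, ATP6V1B2, ATP6V1C1, ATP6V1H, CTSB, CTSS, LAMP2, LAMP3, HEXA and PSAP. TCACGTG was present in 8 of 31 (25.8%), beside 1226 of all 27305 genes with a promoter entry (4.49%), expressed or not. CACGTG was present in 9 of 31, beside 8.77% of those genes. Of the genes with an entry that were tested in PK-1, 738 held TCACGTG and 9569 did not. In Panc-1, 742 held it and 9542 did not. The members with an entry are among these tested genes. The 8 with TCACGTG were ATP6V0B, ATP6V0D1, ATP6V1G1, CTSA, CTSD, LAMP1, MCOLN1 and NEU1. TGAGTCA, the letters read by AP-1 dimers, was present in CD63 and TFE3 (6.45% against 6.05% overall), and GATGCAA, read by ATF4 with C/EBP partners, in none of the 31 (2.99% overall). Members with TCACGTG did not move as 1 group: the median of their log2 fold changes was 0.11 and 0.36 for PK-1 cells (RARγi-1, RARγi-2) and -0.06 and 0.12 for Panc-1 cells, against 0.13, -0.02, 0.06 and -0.03 for the other 23. In the last comparison they spanned -1.66 for CTSA to 0.73 for NEU1. A match of letters is a description of the sequence and does not show binding.

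The promoters of NEU1 (chr6:31862772-31863071, minus strand), CTSA (chr20:45891085-45891384, plus strand) and LAMP1 (chr13:113296989-113297288, plus strand) are printed because all hold the motif while NEU1 was higher and CTSA and LAMP1 were lower after treatment. CTSL (chr9:87725869-87726168, plus strand) and CTSH (chr15:78944997-78945296, minus strand) are printed as the cathepsin genes that rose and fell in all 4 comparisons, neither of which holds any of the motifs in this window. Each is read 5′ to 3′ on the gene's strand, and capitals mark TCACGTG or its reverse complement.
NEU1: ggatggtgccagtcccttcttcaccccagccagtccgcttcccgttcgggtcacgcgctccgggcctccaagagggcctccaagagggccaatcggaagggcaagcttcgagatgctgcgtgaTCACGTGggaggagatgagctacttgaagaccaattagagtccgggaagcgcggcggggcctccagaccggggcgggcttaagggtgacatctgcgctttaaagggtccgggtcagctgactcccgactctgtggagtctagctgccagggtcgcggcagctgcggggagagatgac
CTSA: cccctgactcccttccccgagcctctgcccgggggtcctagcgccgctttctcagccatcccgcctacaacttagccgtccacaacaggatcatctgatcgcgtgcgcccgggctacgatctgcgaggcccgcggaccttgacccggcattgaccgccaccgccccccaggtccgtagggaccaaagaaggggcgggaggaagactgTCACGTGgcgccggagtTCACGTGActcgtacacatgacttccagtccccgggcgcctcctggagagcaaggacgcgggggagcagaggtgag
LAMP1: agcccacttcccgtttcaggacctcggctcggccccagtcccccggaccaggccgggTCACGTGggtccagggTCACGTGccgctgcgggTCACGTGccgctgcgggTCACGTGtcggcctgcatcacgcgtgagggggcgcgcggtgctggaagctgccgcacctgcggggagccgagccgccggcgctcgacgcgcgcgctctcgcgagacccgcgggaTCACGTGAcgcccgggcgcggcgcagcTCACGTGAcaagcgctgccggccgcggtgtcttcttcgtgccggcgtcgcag
CTSL: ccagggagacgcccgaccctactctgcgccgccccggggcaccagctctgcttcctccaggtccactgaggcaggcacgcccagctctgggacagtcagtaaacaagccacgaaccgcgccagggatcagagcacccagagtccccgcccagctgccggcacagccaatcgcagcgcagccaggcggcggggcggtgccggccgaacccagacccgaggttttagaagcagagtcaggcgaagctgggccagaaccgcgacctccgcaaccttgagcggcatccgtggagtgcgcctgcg
CTSH: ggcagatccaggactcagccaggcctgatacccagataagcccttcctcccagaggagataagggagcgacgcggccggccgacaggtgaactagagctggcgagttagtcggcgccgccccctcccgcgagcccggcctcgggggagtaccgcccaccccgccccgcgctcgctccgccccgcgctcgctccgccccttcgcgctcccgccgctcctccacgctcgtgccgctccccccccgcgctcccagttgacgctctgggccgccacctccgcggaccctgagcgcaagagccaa
The E-box CACGTG occurs once in the NEU1 window, 2 times in that of CTSA and 6 times in that of LAMP1.

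The same inhibitor was then compared across the lines, whose Controls are separate libraries. With RARγi-1, 3 of 42 members (ATP6V0D2, CTSL and LAMP3) rose in both lines, where 3.31% of 12795 entries tested in both did, and 1 (CTSH) fell in both, against 2.24%. RARγi-2 raised 4 in both lines, the same 3 and TFE3, against 5.27% of entries, and lowered 3 (ATP6V1A, CTSC and CTSH), against 5.60%. Across the 42 members, Pearson's r between the log2 fold changes of PK-1 and Panc-1 was 0.902 for RARγi-1 and 0.914 for RARγi-2. Without ATP6V0D2 and LAMP3 it was 0.803 and 0.799 (n = 40), and over all 12795 entries 0.593 and 0.672. These are descriptions across genes of 4 libraries each, genes are not independent replicates, and the value over all entries includes many close to the floor. CTSB and CTSA changed more in Panc-1 with RARγi-2 (-1.27 and -1.66) than in PK-1 (-0.25 and -0.90), and TPP1, CTSD and GUSB changed more in PK-1 with either inhibitor. These differences between the lines were not tested.

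A change shared by the lines was tested with limma over the 6 libraries, with cell line as a block and 2 residual degrees of freedom. The 42 members and 12795 entries tested lay above the floor in at least 1 library of each line, treated ones included. The fit was added after the data had been seen, and its p-values measure how alike the lines were, not the spread between replicate cultures. With RARγi-1, 4 members were higher at a Benjamini-Hochberg adjusted p under 0.05 (CTSL, LAMP3, TFE3 and ATP6V0D2), beside 3.44% of entries, and CTSH was lower, beside 1.54%. Its log2 fold changes over both lines were 1.95 ± 0.15 (SE) for CTSL (limma adjusted p = 0.0254), 3.85 ± 0.37 for LAMP3 (0.0259), 1.07 ± 0.15 for TFE3 (0.0364), 3.19 ± 0.54 for ATP6V0D2 (0.0457) and -1.68 ± 0.30 for CTSH (0.0491). Several of these lie close to the limit, and NEU1 missed it at 0.99 ± 0.19 (adjusted p = 0.0525). For ATP6V0D2 the fit cannot decide, because each Control value is the deposited minimum of 1 TPM and the gene could only come out higher. Its SE and adjusted p hold no spread of the Controls. They are not taken as evidence, and its change rests on the levels given above.

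With RARγi-2, 7 members were higher (LAMP3, CTSL, ATP6V0D2, PSAP, TFE3, NEU1 and CD63) and 4 lower (CTSH, CTSC, ATP6V1A and CTSA), where 11.8% and 11.9% of entries were. PSAP was 1.05 ± 0.14 (SE) higher over both lines (limma adjusted p = 0.0123), CTSC changed by -2.15 ± 0.30 (0.0128) and ATP6V1A by -1.09 ± 0.16 (0.0151). LAMP1 (-0.48 ± 0.14, adjusted p = 0.0611) and GUSB (-0.86 ± 0.27, adjusted p = 0.0757) missed the limit. Without the RARγi-2 libraries, whose treatment entry conflicts with their title, ATP6V0D2, CTSL, LAMP3 and CTSH still passed for RARγi-1 and TFE3 did not (limma adjusted p = 0.0602). The limit stated for ATP6V0D2 with RARγi-1 holds for its calls in these fits too, so they are not taken as evidence.

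Before treatment, 10 of 42 members were past 2-fold higher in PK-1 and 3 in Panc-1, where 14.6% and 15.7% of 14614 tested entries were. CTSH differed most, with 631 TPM in PK-1 against only 23.0 TPM in Panc-1, or 27.4-fold. MITF was 12.3-fold higher in PK-1 (13.0 against 1.06 TPM) and NPC2 3.21-fold higher (262 against 81.5 TPM). The other members higher in PK-1 were ATP6V1B2, CTSC, CTSL, CTSS, GLB1, GRN and LAMP1. In Panc-1, TPP1 was 3.40-fold, CTSD 2.38-fold and MCOLN1 2.24-fold higher. Of the pump genes only ATP6V1B2 was past 2-fold on the log2 (TPM + 1) scale, with ATP6V0A1 near it at 29.6 against 14.6 TPM, and their summed level was 1863 TPM for PK-1 and 1951 TPM for Panc-1.

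A wider list of 84 further lysosomal genes, 75 of them tested in PK-1 and 78 in Panc-1, was counted in the same way. In PK-1, 3 rose (CD68, ARSA and CTSK) and 1 fell (PPT1) with RARγi-1 (9.06% and 4.85% of all entries), and 7 rose and 8 fell with RARγi-2 (11.9% and 12.4%). In Panc-1, 4 rose (RRAGC, NPC1, FLCN and ARSA) and 4 fell (HYAL2, TPCN1, ABCB9 and CTSF) with RARγi-1 (7.31% and 5.96%), and 4 rose (RRAGC, NPC1, ATP6V0A2 and FLCN) and 9 fell with RARγi-2 (8.34% and 11.0%). The medians were 0.22, 0.12, 0.18 and -0.04, and no gene of this list passed 2-fold in 1 direction in all 4 comparisons. The genes that follow were chosen after their values were seen, as those nearest to doing so and those that differed most by line. HYAL2, encoding a hyaluronidase, was 33.2, 16.9 and 6.21 TPM in PK-1 and 40.2, 12.0 and 8.72 TPM in Panc-1, with log2 fold changes of -0.94, -2.25, -1.66 and -2.08. ARSA, encoding arylsulfatase A, was 4.39, 14.0 and 16.6 TPM in PK-1 and 20.2, 42.0 and 37.7 TPM in Panc-1, 0.87 to 1.71 higher.

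The 14 genes of nutrient sensing at the lysosome, 12 of them tested in each line, include the Rag GTPases and the folliculin complex, which hold MiT/TFE factors in the cytosol when amino acids are plentiful. None of the 12 fell, and 0, 2, 2 and 2 rose in PK-1 RARγi-1, PK-1 RARγi-2, Panc-1 RARγi-1 and Panc-1 RARγi-2, where 9.06%, 11.9%, 7.31% and 8.34% of all entries rose and 4.85%, 12.4%, 5.96% and 11.0% fell. RRAGC, encoding RagC, was 28.0, 53.4 and 67.9 TPM in PK-1 and 37.9, 99.7 and 113 TPM in Panc-1, with changes of 0.91, 1.25, 1.37 and 1.55. FLCN, encoding folliculin, was 13.3, 22.2 and 23.4 TPM in PK-1 and 19.0, 39.9 and 40.7 TPM in Panc-1, 0.70 to 1.06 higher. Both were higher in every treated library than in either Control, and the share of all entries with this pattern was not counted. The 2 genes that rose were RRAGC and RRAGA in PK-1 and RRAGC and FLCN in Panc-1. The medians of the sublist were 0.07, -0.07, 0.15 and 0.04.

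Of the other hydrolases on that list, PPT1, which removes palmitate from proteins, was 175, 76.7 and 43.1 TPM in PK-1 and 149, 106 and 67.2 TPM in Panc-1. It fell with both inhibitors in PK-1 (-1.18 and -1.99) and with RARγi-2 in Panc-1 (-1.13). CTSV, encoding cathepsin V, the closest relative of cathepsin L, was 36.5, 22.6 and 13.3 TPM in PK-1 and 6.45, 3.14 and 1.73 TPM in Panc-1. Its changes of -0.66, -1.39, -0.85 and -1.45 thus had the opposite sign to those of CTSL in all 4 comparisons. CD68, a heavily glycosylated lysosomal membrane protein best known from macrophages, went from 19.8 to 95.0 and 62.6 TPM in PK-1, while Panc-1 held 244, 276 and 238 TPM.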

How the data were processed

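RNA-seq libraries were made by the authors from total RNA with a stranded mRNA kit, 1 per condition. The authors deposited log2 values of TPM per library, with everything under 1 TPM raised to 1 TPM, which was read from the values. The submitters' processing notes name hg38. The aligner, counting method and annotation are not given in the sources used here. TPM keep no read depth, so no interval was computed.

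The deposited values were turned into linear TPM with Python 3.11.15, numpy 2.4.6 and pandas 2.3.3, and plotted with matplotlib 3.10.9. Log2 fold changes used a pseudocount of 1 TPM. Entries above 1 TPM in at least 1 library of a line were counted as tested and called past 2-fold. For a repeated symbol the entry with the highest mean was kept. Comparisons within a line share their Control. For the spread, the treated libraries of a line were subtracted on the log2 (TPM + 1) scale, and the median absolute deviation was multiplied by 1.4826 and divided by the square root of 2. Only entries reaching 5 TPM somewhere in the line entered it (11267 in PK-1, 11055 in Panc-1). The fold calls and the fit described next were tried on simulated libraries, with changes well past 2-fold in entries well above the floor. For the fold calls the simulated noise was smaller than the spread per library. Changed genes near the floor and changes near 2-fold were thus not covered. A fit of limma 3.58.1 in R 4.3.3 on log2 (TPM + 1), with cell line as block and mean-variance trend, was added after the results had been seen. Alternatives changed the pseudocount, fold limit, scaling, low-value filter and handling of repeated symbols.

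The members and lists were chosen with earlier results of these data known. Every member could be named; full levels were given for members past 2-fold in 1 direction in all comparisons or with both inhibitors in 1 line, members with opposite directions in the lines, the transcription factors and the most abundant of each class. Others given in full, among them ATP6V0D1, ATP6V1A, ATP6V1B2, ATP6V1C2, CTSA, CTSB, TPP1, LAMP1, LAMP2, GRN and NPC2, were chosen after their values were seen.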

Additional observations from a re-analysis of the deposited data

Results flagged for a closer look

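With every change past the spread per library (0.29 in PK-1, 0.23 in Panc-1), no member went one way in PK-1 and the other way in Panc-1 with both inhibitors, but 2 genes of the wider lysosomal list did. TCIRG1, encoding the a3 form of the V0 subunit a, was 36.7, 51.4 and 47.7 TPM in PK-1 Control, RARγi-1 and RARγi-2 and 58.0, 36.8 and 26.2 TPM in Panc-1. PK-1 changed by 0.48 and 0.37 on the log2 scale, Panc-1 by -0.64 and -1.12, and the 0.37 lies within the spread of a fold change in PK-1 (0.41). LAPTM5, a lysosomal membrane protein of blood cells, was 2.62, 5.53 and 4.38 TPM in PK-1, with changes of 0.85 and 0.57. In Panc-1 it was 2.52 TPM in Control and at the floor in both treated libraries, which gave -0.81 and -0.81. The difference between the lines was not tested.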

How the results depend on the processing

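Each condition has 1 library, so no replicate could be left out, and the only pairing is by cell line, as in the limma fit. That fit kept the same members without a pseudocount and with 0.1 TPM. With RARγi-1 it called 3 higher after rescaling (without ATP6V0D2), 5 with a minimum of 5 TPM (NEU1 added) and 3 without the RARγi-2 libraries (without TFE3). With RARγi-2 it called 5 lower with that minimum (GLB1 added). The counts of members past 2-fold also moved with some of the settings. With no pseudocount, or one of 0.1 TPM, 5 members rose in Panc-1 with RARγi-1 (3 with 1 TPM). At a 1.5-fold limit 9 members fell in PK-1 with RARγi-2 (4 at 2-fold), 7 rose and 4 fell in Panc-1 with RARγi-1 (3 and 1), and 8 rose in Panc-1 with RARγi-2 (4). At a 3-fold limit 3 rose and 1 fell in PK-1 with RARγi-1 (6 and 3), 3 rose and 2 fell in PK-1 with RARγi-2 (7 and 4), 0 fell in Panc-1 with RARγi-1 (1), and 2 rose and 2 fell in Panc-1 with RARγi-2 (4 and 6). Rescaling the libraries used median ratios over the entries above the floor in all 6 libraries. This rescaling shifted PK-1 RARγi-1 by -0.13 and Panc-1 RARγi-1 by -0.10 on the log2 scale. It took TPP1 out of the members that rose in PK-1 with RARγi-1, leaving 5, and ATP6V1A out of those that fell in PK-1 with RARγi-2, leaving 3. Under it the median of all members in Panc-1 with RARγi-1 went from 0.01 to -0.08, and that of the pump genes in PK-1 with RARγi-1 from 0.14 to 0.01. All 80 class medians under the alternatives moved by less than the spread of a fold change, at most by 0.131, for the pump genes in PK-1 with RARγi-1. Changes of genes near the floor depend on the pseudocount: without one, ATP6V0D2 stood at 4.37, 6.80, 3.83 and 4.58 on the log2 scale.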
